A study of Sus scrofa with 6 samples.

Results

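The genes described here are the 73 of 17627 rows of the expression table whose identifier matched a symbol beginning with CCL, CCR, CXCL, CXCR or IL and a digit, or with TNFSF or TNFRSF. The rule rests on names alone and uses no measured value, but members, lists and tests were chosen with earlier results of these data known. They comprise 10 chemokines, 10 chemokine receptors, 12 interleukins, 26 interleukin receptor chains, 5 ligands and 9 receptors of the tumour necrosis factor (TNF) superfamily, and IL4I1, an amino acid oxidase that carries an interleukin name but is no cytokine. Only 10384 identifiers (58.9%) could be named, and CXCL12, CXCR4, CCR2, IL1B and TNFSF10 were not analysed here.

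Cytokines and chemokines are small secreted proteins by which cells call, feed and restrain one another, and each acts only on cells that carry its receptor. Interleukin and chemokine receptors sit mostly on white blood cells, but muscle fibres and their resident cells also carry some of them, among them the receptors for interleukin 6, interleukin 13 and the ligand TWEAK. Muscle itself releases interleukins such as IL15 and IL18, and the leukocytes between its fibres add chemokines of their own.

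RNA came from the back muscle longissimus dorsi in 3 libraries of the Wannanhua breed, a local Chinese pig, and 3 of the Yorkshire breed, a lean commercial pig. All 6 are labelled as 5 months of age, although the series' design text speaks of piglets, and no treatment, transgene or sex is labelled. The labels do not say whether libraries of a breed came from separate animals, so the p-values rest on library-to-library spread alone, and that may be technical. The series asks which genes differ between the muscles of the 2 breeds.

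Libraries held between 16385602 and 21056699 recovered reads. Skeletal muscle markers were abundant in every library, with a summed level of 8859 to 14334 FPKM over 4 genes (a level scaled for transcript length and library depth). Most leukocyte markers were low. The 11 macrophage and monocyte genes summed to 23.4 to 33.2 FPKM in Wannanhua and 25.5 to 42.6 in Yorkshire, the 5 B and plasma cell genes to 0.365 to 1.01 and 0.406 to 0.726, and the 4 neutrophil genes to 0.546 to 1.07 and 0.142 to 0.718. The 3 mast cell genes summed to 1.24 to 3.69 FPKM and 2.20 to 5.77, and held 2 genes that passed a test in opposite directions. KIT, a growth factor receptor, was lower in Wannanhua (means 0.423 and 3.64 FPKM; adjusted p = 0.0390 in limma, 0.00875 in edgeR), and FCER1A, a chain of the IgE receptor that is also on the dendritic cell list, was higher (1.95 and 0.230 FPKM; edgeR adjusted p = 0.0356, not tested in limma). KIT reached 1 FPKM in Yorkshire libraries alone and so entered limma's test through the breed in which it is higher. FCER1A had 87 reads in Wannanhua and 10 in Yorkshire, and likewise entered edgeR's test through Wannanhua. Over all genes 3.05% passed in limma and 2.87% in edgeR. The 5 dendritic cell genes summed to 12.4 to 19.1 FPKM and 16.7 to 25.2, most of it CD83 (means 12 and 21.3 FPKM, limma adjusted p = 0.137). In whole muscle, fewer cells of a type and less RNA per cell cannot be told apart.

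Most of the family was barely measured. Of the 73 members, 25 reached 1 FPKM in at least 3 libraries and were tested (34.2%, against 66.9% of all rows), and 48 did not. The tested members carried between 92.2% and 96.2% of the family's reads in each library. Receptors led: the 3 highest mean levels over the 6 libraries were those of TNFRSF12A at 58.3 FPKM, IL13RA1 at 28.4 and IL11RA at 23.7. IL6ST followed at 15.7 FPKM, and the highest ligand, CXCL2, stood at 12 FPKM. None of the 10 chemokine receptors and none of the 5 TNF superfamily ligands passed the filter.

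**Figure D1:**
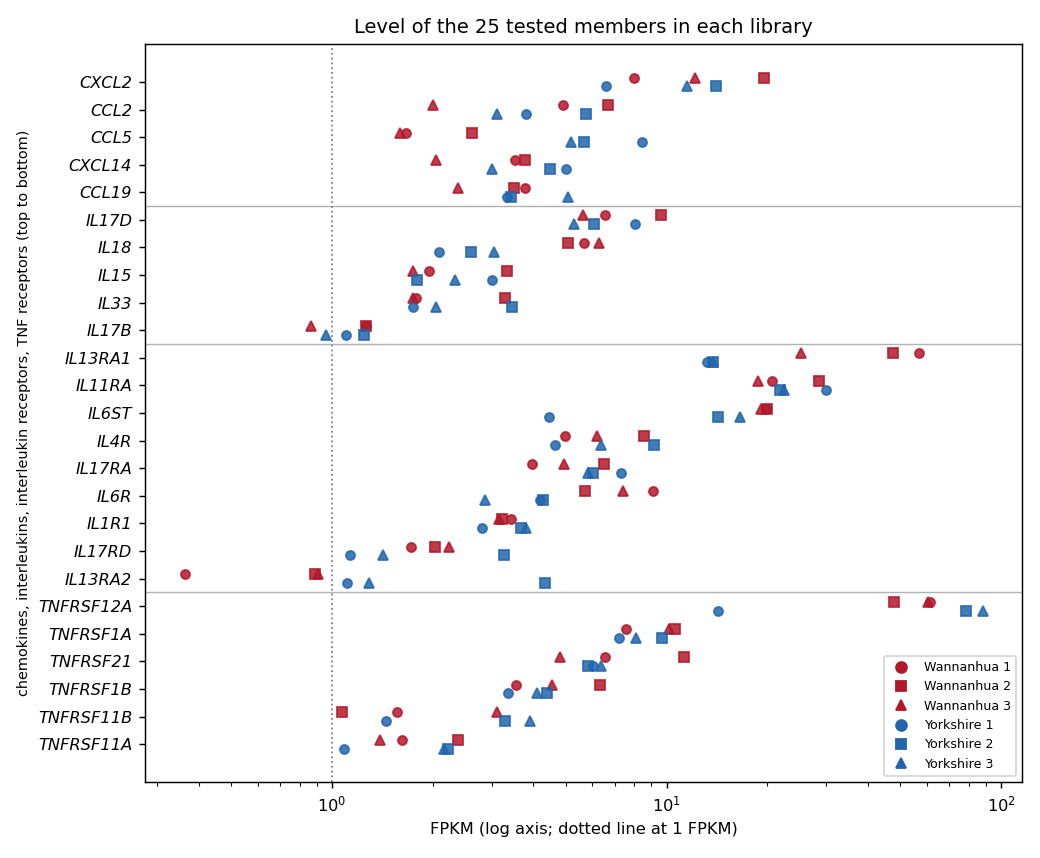
FPKM (log axis) of the 25 tested members in each of the 6 libraries, grouped from top to bottom as chemokines, interleukins, interleukin receptors and TNF receptors; red points are Wannanhua, blue points Yorkshire, and the shape gives the replicate number. Points of both breeds mix for most genes. IL13RA1, IL18, IL6R and IL6ST lie to the right and CCL5 and IL13RA2 to the left in Wannanhua, without overlap.

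Between breeds, IL13RA1 and IL18 were higher and CCL5 was lower in Wannanhua muscle, and these 3 of the 25 tested members passed limma's test at an adjusted p under 0.05. In the same test 3.05% of all 11791 genes passed, 1.76% higher and 1.29% lower. At an unadjusted p under 0.05 stood 4 members, IL6R being the fourth, against 22.1% of all genes. The libraries of the breeds did not overlap for 6 of the 25 members, a share below the 29.9% of all tested genes: 4 were higher (IL13RA1, IL18, IL6R and IL6ST), against 20.3% of all genes, and 2 lower (CCL5 and IL13RA2), against 9.63%. The median log2 fold change, Wannanhua minus Yorkshire, was 0.01 over the 25 members and 0.12 over all tested genes. Quantile normalization moved the median of all genes to 0.00 and that of the members to -0.13, so the members' median lay below that of all genes on both scales and changed its sign between them. With that scaling the calls over all genes were 138 higher and 200 lower, against 208 and 152 as deposited.

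The count tests on recovered reads reached 35 members. In edgeR 2 passed, IL13RA1 higher and CCL5 lower, against 2.87% of all 13065 genes (1.41% higher, 1.46% lower). In DESeq2 the same 3 members as in limma passed, against 9.58% of all genes (4.78% higher, 4.80% lower). With limma's filter lowered to 0.3 FPKM, 39 members were tested and 2 passed, IL13RA1 and CCL5, against 2.21% of all genes (1.22% higher, 0.985% lower). With no filter, 0 of the 73 members passed and 7 had an unadjusted p under 0.05, against 0.392% (0.176% higher, 0.216% lower) and 18.1% of all genes.

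**Figure D2:**
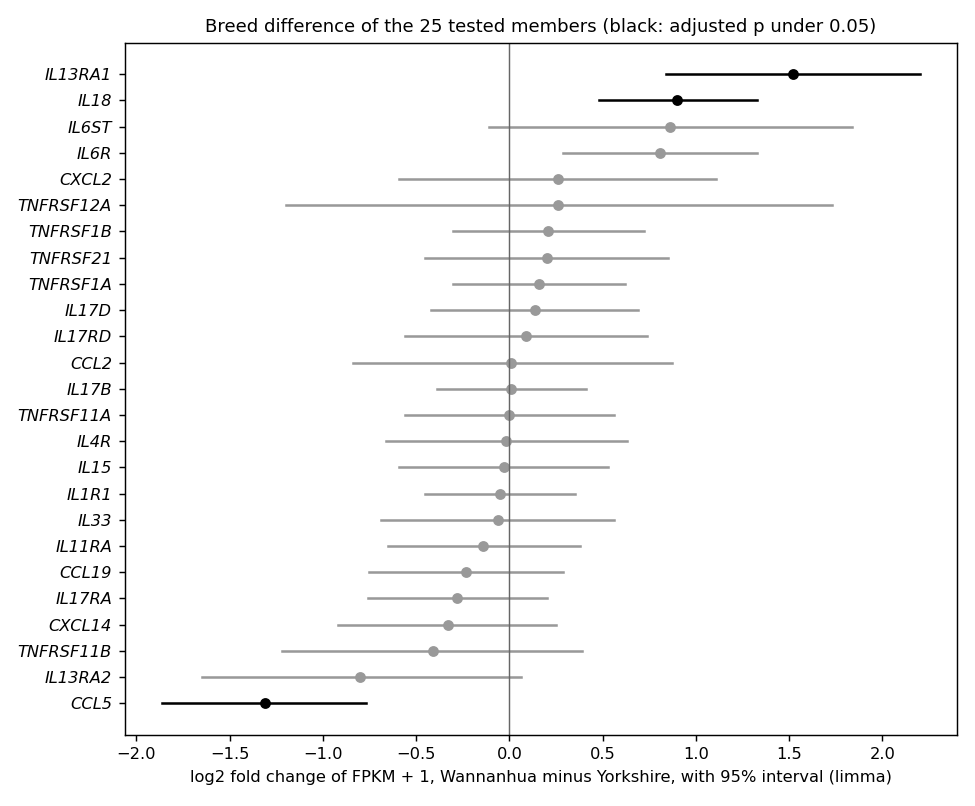
Log2 fold change of FPKM + 1, Wannanhua minus Yorkshire, with its 95% interval from limma, for the 25 tested members in order of size; black marks an adjusted p under 0.05. IL13RA1 at 1.52, IL18 at 0.90 and CCL5 at -1.31 are the black points, and of the other intervals only that of IL6R leaves out 0.

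On limma's scale the largest difference among the tested members was in IL13RA1, while CCL5 had the larger ratio of FPKM means and the larger log2 fold change in edgeR and DESeq2. IL13RA1 (ENSSSCG00000012633) is the receptor chain that binds interleukin 13 and, paired with IL4R, forms a receptor for interleukins 4 and 13. It stood at 56.9, 47.4 and 25.2 FPKM in Wannanhua 1, 2 and 3, and at 13.2, 13.8 and 13.8 in Yorkshire 1, 2 and 3. The Yorkshire libraries were almost alike, all Wannanhua libraries lay above them, and Wannanhua 3 was much nearer to them than the other two. The means were 43.2 ± 16.3 and 13.6 ± 0.347 FPKM (SD, n = 3), a ratio of 3.17, and limma gave a log2 fold change of 1.52 ± 0.29 (SE; adjusted p = 0.0440). It rested on 7760 recovered reads in Wannanhua and 2675 in Yorkshire, the most of any member. The gene also passed the count tests on recovered reads, with adjusted p = 0.0457 in edgeR and 0.000363 in DESeq2. Without Wannanhua 3 the log2 fold change was 1.86 and the limma adjusted p = 0.00543, and leaving out any of the other 5 libraries ended the call (adjusted p = 0.0829 to 0.157, log2 fold change 1.28 to 1.53). After quantile normalization the adjusted p was 0.0602.

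IL13RA1 alone took 38.8%, 32% and 23.3% of the family's reads in Wannanhua 1, 2 and 3, and 13.8% to 17.6% in Yorkshire. Scaled to equal library totals (CPM, recovered reads of the family over all recovered reads), the whole family amounted to 510, 569 and 351 CPM in Wannanhua 1, 2 and 3, and to 258, 369 and 308 in Yorkshire 1, 2 and 3. Without IL13RA1 the family's CPM was 312, 387 and 269 in Wannanhua and 212, 318 and 263 in Yorkshire, so the breeds overlapped with and without it.

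The partner of IL13RA1 and its decoy counterpart did not pass. IL4R, the chain that binds interleukin 4, stood at 4.96, 8.59 and 6.18 FPKM in Wannanhua 1, 2 and 3 and at 4.63, 9.19 and 6.38 in Yorkshire 1, 2 and 3. Those ranges overlapped almost fully, with a log2 fold change of -0.02 and a 95% interval of -0.66 to 0.63 (limma adjusted p = 0.982). IL13RA2, known as a decoy that binds interleukin 13 without the usual signal, stood at 0.363, 0.887 and 0.907 FPKM in Wannanhua and 1.11, 4.34 and 1.29 in Yorkshire. Its Yorkshire libraries all lay above the Wannanhua ones, and Yorkshire 2 lay far above the rest. It reached 1 FPKM in Yorkshire libraries alone and so entered the test through the breed in which it is higher, and it had 40 and 90 reads per breed (log2 fold change -0.80, 95% interval -1.65 to 0.06, limma adjusted p = 0.250). The ligand IL13 had 2 reads, both in Wannanhua 2, and was listed at 0 in the other 5 libraries.

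**Figure D3:**
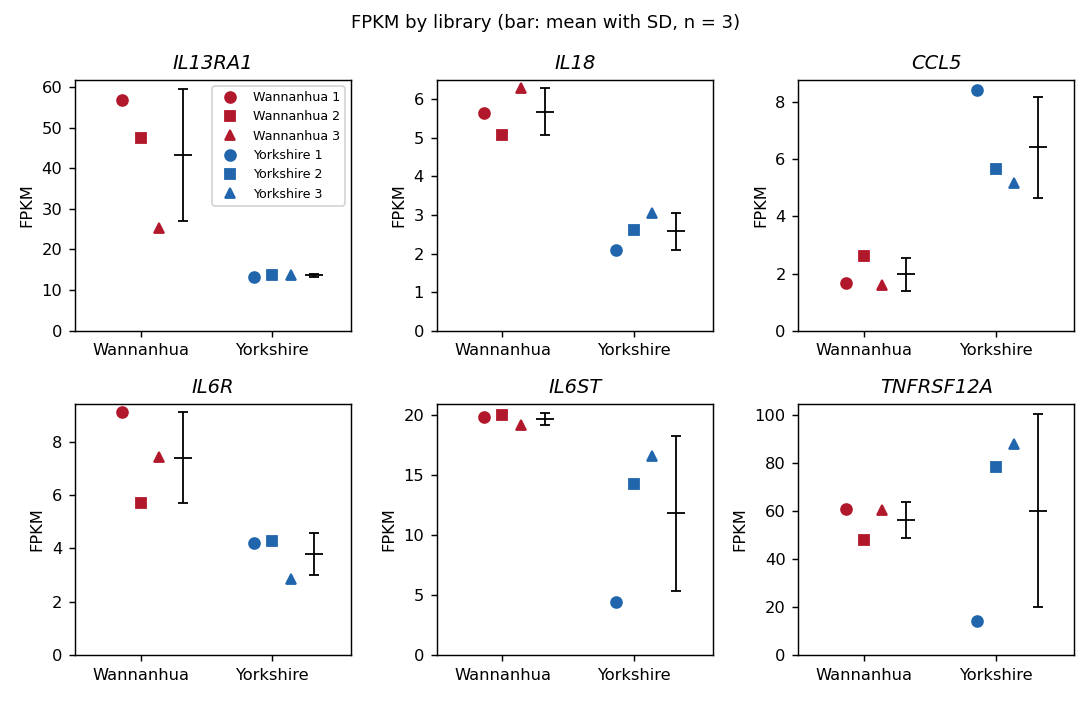
FPKM (linear axis from 0) of 6 members in each library, with the breed mean and SD (n = 3) in black; colours give the breed and shapes the replicate number. Wannanhua and Yorkshire points do not overlap for IL13RA1, IL18, CCL5, IL6R and IL6ST, and Yorkshire 1 is the lowest point for IL6ST at 4.44 FPKM and TNFRSF12A at 14.2 FPKM.

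Among the interleukins, IL18 (ENSSSCG00000015037), a cytokine of the interleukin 1 family that is made as a precursor and cut by an inflammasome protease, was the member that passed. It stood at 5.66, 5.07 and 6.30 FPKM in Wannanhua 1, 2 and 3 and at 2.09, 2.61 and 3.05 in Yorkshire 1, 2 and 3. All Wannanhua libraries lay above all Yorkshire libraries, with little spread inside either breed. The means were 5.68 ± 0.615 and 2.58 ± 0.483 FPKM (SD, n = 3), a ratio of 2.20, and limma gave a log2 fold change of 0.90 ± 0.18 (SE; adjusted p = 0.0473). The call stood close to the threshold: edgeR gave an adjusted p of 0.0875, DESeq2 0.0466, and leaving out any library ended it (limma adjusted p = 0.0728 to 0.16), with log2 fold changes of 0.80 to 1.0. The reads behind it were few, 215 in Wannanhua and 105 in Yorkshire.

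Some muscle markers also stood apart between the breeds. The 7 smooth muscle and pericyte markers summed to 4609 to 5895 FPKM in Wannanhua and 2319 to 3038 in Yorkshire, but nearly all of that was DES, a filament protein that skeletal fibres also carry. The other 6 overlapped, at 81.4 to 233 FPKM and 98.0 to 138, with 4 higher and 2 lower means in Wannanhua, a split made after the values were seen. The 4 skeletal muscle markers summed to 8859 to 11468 FPKM and 13719 to 14334, and they went both ways. CASQ1, a calcium-binding protein of the fibre's calcium store, was lower in Wannanhua (means 1552 and 3646 FPKM; adjusted p = 0.0435 in limma, 0.0706 in edgeR). It was the 1 call among these 4 markers in limma, against 3.05% of all genes, and 0 passed in edgeR, against 2.87%. PYGM, muscle glycogen phosphorylase, had means of 2487 and 7010 FPKM (limma adjusted p = 0.0666). DES (4917 and 2501 FPKM, limma adjusted p = 0.0706) and NEB (1018 and 809 FPKM, limma adjusted p = 0.40) had the higher mean in Wannanhua. The sums of the macrophage, endothelial (49.7 to 74.4 and 52.2 to 64.4 FPKM), fibroblast (285 to 370 and 318 to 774 FPKM), adipocyte (47.4 to 66.2 and 20.6 to 57.6 FPKM) and red blood cell markers (43.4 to 142 and 15.8 to 93.6 FPKM) overlapped between breeds. The part of these tissues in the differences of IL13RA1 and IL18 was not tested.

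The receptor for IL18 is made of IL18R1, which binds it, and IL18RAP, which completes the signal. Neither passed the filter. IL18R1 stood at 0.469, 0.744 and 0.196 FPKM in Wannanhua and 0.0833, 0.199 and 0.508 in Yorkshire, and the breeds overlapped. IL18RAP had 6 reads over the 6 libraries.

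The other interleukins that were tested did not pass. IL17D, a member of the interleukin 17 family, was the highest, between 5.28 and 9.64 FPKM over the 6 libraries with the breeds mixed (log2 fold change 0.14, 95% interval -0.42 to 0.69, limma adjusted p = 0.777). IL15, a growth and survival factor for lymphocytes that muscle releases, stood at 1.95, 3.34 and 1.75 FPKM in Wannanhua and 3.01, 1.79 and 2.34 in Yorkshire. The 2 ranges overlapped, and the log2 fold change was -0.03 with a 95% interval of -0.59 to 0.53 (limma adjusted p = 0.956). The 4 tested members that the naming rule did not pick, IL17B, IL17RD, IL33 and TNFRSF11A, had mean levels of 1.12 to 2.35 FPKM and log2 fold changes of -0.06 to 0.09 (limma adjusted p = 0.876 to 0.997).

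Chemokines were the group with the member lower in Wannanhua. CCL5 (ENSSSCG00000017705), also called RANTES, is made chiefly by activated T cells and natural killer cells and draws leukocytes through receptors that include CCR1 and CCR3. It stood at 1.67, 2.63 and 1.6 FPKM in Wannanhua 1, 2 and 3 and at 8.44, 5.65 and 5.17 in Yorkshire 1, 2 and 3. Every Yorkshire library lay above every Wannanhua library. The means were 1.97 ± 0.571 and 6.42 ± 1.76 FPKM (SD, n = 3), a ratio of 3.26, and limma gave a log2 fold change of -1.31 ± 0.23 (SE; adjusted p = 0.0397). The level came from 16, 22 and 16 recovered reads in Wannanhua and 58, 48 and 46 in Yorkshire. Scaled for library depth, FPKM per read was higher in every Yorkshire library than in every Wannanhua library. The ratio of FPKM means is therefore not a ratio of reads alone. The count tests also passed it (adjusted p = 0.0471 in edgeR, 0.00419 in DESeq2), and leaving out any library ended limma's call (adjusted p = 0.0590 to 0.145), with log2 fold changes of -1.47 to -1.13.

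No marker of T cells or of natural killer and cytotoxic cells passed in limma (0, with 1 and 1 at an unadjusted p under 0.05) or in edgeR (0). Over all genes 3.05% passed in limma, 22.1% had an unadjusted p under 0.05 there, and 2.87% passed in edgeR. Most of them were too low for limma's filter, which left 1 T cell marker and 2 of the others. Of 10 T cell markers with a value, 9 had a lower mean in Wannanhua, and the 9 summed to 2.34, 2.50 and 2.43 FPKM in Wannanhua 1, 2 and 3 and to 4.74, 4.77 and 4.16 in Yorkshire 1, 2 and 3. The tenth, CD247, the zeta chain of the T cell receptor complex, was the one that limma tested and had the higher mean in Wannanhua, at 6.57, 5.17 and 3.23 FPKM in Wannanhua and 1.51, 1.64 and 1.96 in Yorkshire (limma adjusted p = 0.0564). With it the 10 genes summed to 5.65 to 8.92 and 6.13 to 6.42, and the breeds overlapped. Of those with a value, none was at 0 in every library. The 8 rows of natural killer and cytotoxic cell markers summed to 3.27 to 4.33 FPKM in Wannanhua and 7.48 to 8.11 in Yorkshire, with 7 of the 8 means lower in Wannanhua and that of NCR1 higher. Most of each sum came from GNLY and NKG7 (NKG7 means 1.16 and 1.54 FPKM, limma adjusted p = 0.471). No other row had more than 34 reads in all, and GZMA fills 2 of the rows. The granzyme GZMH was listed at 0 in all Wannanhua libraries and had 20 reads in Yorkshire. GNLY, a pore-forming granule protein, was the highest of them, with means of 2.43 ± 0.839 and 5.20 ± 0.729 FPKM (SD, n = 3; limma adjusted p = 0.0864). The part of these cells in the CCL5 difference was not tested. Splitting off CD247 was decided after its values were seen.

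**Figure D4:**
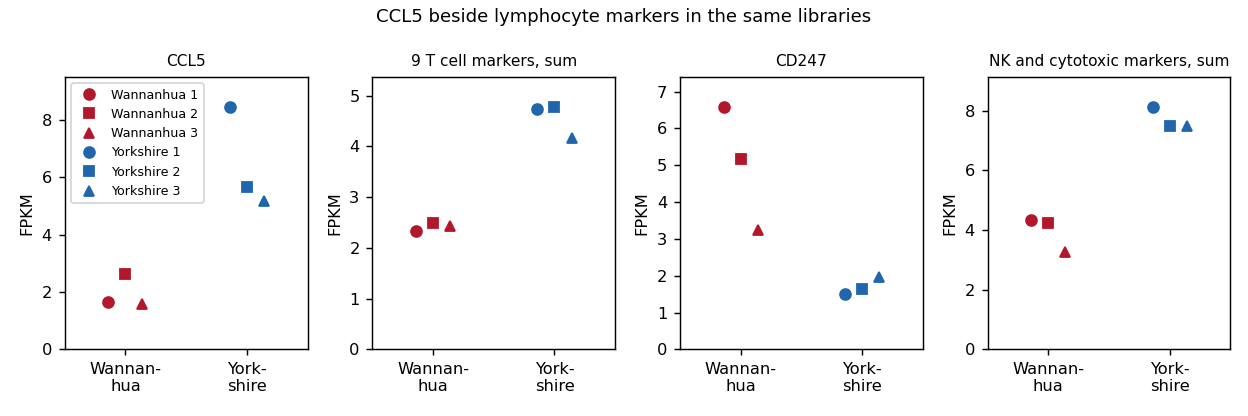
FPKM (linear axes from 0) in each library of CCL5, the summed 9 T cell markers, CD247, and the summed natural killer and cytotoxic markers; red is Wannanhua, blue Yorkshire. CCL5 and both sums are higher in all 3 Yorkshire libraries (the T cell sum at 4.16 to 4.77 against 2.34 to 2.50 FPKM), while CD247 is higher in all 3 Wannanhua libraries. The 9 are the T cell markers with the lower mean in Wannanhua, so that choice set the direction of their sum. With CD247 the 10 markers sum to 5.65 to 8.92 FPKM in Wannanhua and 6.13 to 6.42 in Yorkshire, and the breeds overlap. Most of the natural killer and cytotoxic sum is GNLY and NKG7.

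CCR1 and CCR3, receptors of CCL5, lay under the filter, with 54 and 31 reads in all and overlapping breeds.

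Of the other 4 tested chemokines none passed, and the breeds overlapped in each. CXCL2, which draws neutrophils, stood at 7.98, 19.6 and 12.2 FPKM in Wannanhua and 6.59, 14.1 and 11.5 in Yorkshire (log2 fold change 0.26, 95% interval -0.59 to 1.11, limma adjusted p = 0.713); near-identical CXCL copies may share its reads. CCL2, which draws monocytes, ran from 2.01 to 6.70 FPKM with its lowest and its highest library both in Wannanhua (log2 fold change 0.01, 95% interval -0.84 to 0.87, limma adjusted p = 0.988). That sign turned to -0.13 after quantile normalization and carries no direction. CXCL14 and CCL19, the latter a ligand of CCR7 on lymphocytes and dendritic cells, had means of 3.11 and 3.22 FPKM in Wannanhua and 4.16 and 3.95 in Yorkshire (log2 fold change -0.33 and -0.23, limma adjusted p = 0.465 and 0.580). CCR7 itself had 3 reads over the 6 libraries.

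The receptors that signal through gp130 include 2 of the 4 highest members, IL11RA and IL6ST. IL6ST (ENSSSCG00000016916) encodes gp130, the signalling chain shared by the receptors for interleukin 6, interleukin 11 and several related cytokines. It stood at 19.8, 20 and 19.1 FPKM in Wannanhua 1, 2 and 3 and at 4.44, 14.2 and 16.6 in Yorkshire 1, 2 and 3. All Wannanhua libraries lay above all Yorkshire libraries, but the gap was wide for Yorkshire 1 and narrow for the others. The log2 fold change was 0.86 with a 95% interval of -0.11 to 1.84 (limma adjusted p = 0.274), and 0.33 without Yorkshire 1 (adjusted p = 0.281).

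IL6R (ENSSSCG00000027628), the chain that binds interleukin 6, stood at 9.10, 5.69 and 7.41 FPKM in Wannanhua and 4.20, 4.27 and 2.86 in Yorkshire. Its breeds did not overlap, with means of 7.40 ± 1.7 and 3.78 ± 0.796 FPKM (SD, n = 3). The log2 fold change of 0.81 (95% interval 0.29 to 1.33) did not pass over all genes (limma adjusted p = 0.0973; 0.0874 to 0.266 over its 16 alternatives). IL11RA, which binds interleukin 11, ran from 18.7 to 28.5 FPKM in Wannanhua and 21.9 to 30.0 in Yorkshire (log2 fold change -0.14, 95% interval -0.65 to 0.38, limma adjusted p = 0.753). Against these receptors the ligand IL6 had 11 reads in 6 libraries, 8 in Wannanhua and 3 in Yorkshire.

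The other interleukin receptor chains that were tested showed no call. IL17RA, the common chain for the interleukin 17 family, averaged 5.13 ± 1.27 FPKM (SD, n = 3) in Wannanhua against 6.39 ± 0.805 in Yorkshire, with overlap (limma log2 fold change -0.28, adjusted p = 0.453). IL1R1, the signalling receptor for interleukin 1, stood at 3.42, 3.22 and 3.16 FPKM and at 2.80, 3.68 and 3.79, the Yorkshire libraries lying on both sides of the Wannanhua ones (log2 fold change -0.05, 95% interval -0.45 to 0.35, limma adjusted p = 0.90). Some of these genes sit beside a much lower relative. By the RefSeq gene table of Sscrofa11.1, IL1R1 lies directly between IL1RL2 and IL1R2, whose mean levels were 0.0643 and 0.0509 FPKM, and IL4R lies beside IL21R, at 0.0372 FPKM.

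TNF receptors were represented by 6 tested members out of 9. None passed in limma or in edgeR, against 3.05% and 2.87% of all genes. At an unadjusted p under 0.05 in limma stood 0, against 22.1% of all genes. TNFRSF12A (ENSSSCG00000027130), also called Fn14, is the receptor for TWEAK and is known to rise in denervated or injured muscle. It stood at 61.1, 47.9 and 60.3 FPKM in Wannanhua 1, 2 and 3 and at 14.2, 78.6 and 88.0 in Yorkshire 1, 2 and 3. Yorkshire 1 lay far below all other libraries, and the other Yorkshire libraries lay above every Wannanhua library. The log2 fold change was 0.26 with a 95% interval of -1.20 to 1.73 (limma adjusted p = 0.836), and without Yorkshire 1 it was -0.56 (adjusted p = 0.156); the count tests, with all 6 libraries, also gave it a negative sign.

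TNFRSF1A and TNFRSF1B, the 2 receptors for TNF itself, had means of 9.47 and 4.80 FPKM in Wannanhua and 8.33 and 3.94 in Yorkshire, and both breeds overlapped (log2 fold change 0.16 and 0.21, limma adjusted p = 0.667 and 0.609). TNFRSF21, known as death receptor 6, stood at 6.53, 11.3 and 4.79 FPKM in Wannanhua and 6.01, 5.83 and 6.35 in Yorkshire, so that Wannanhua held both the highest and the lowest library (log2 fold change 0.20, 95% interval -0.45 to 0.85, limma adjusted p = 0.706). TNFRSF11B, or osteoprotegerin, a secreted decoy for the ligand of RANK, stood at 1.56, 1.07 and 3.11 FPKM and at 1.45, 3.29 and 3.91 (log2 fold change -0.41, 95% interval -1.22 to 0.39, limma adjusted p = 0.515). Its highest Wannanhua library and lowest Yorkshire library crossed over.

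Yorkshire 1 held the lowest value of 12 of the 25 tested members, against 36.3% of all tested genes, and Wannanhua 2 held the highest value of 9, against 27.0% of all tested genes. Wannanhua 3 was lowest for 8 members and highest for 1, while over all tested genes it was highest for 22.4% and lowest for 9.50%.

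The 48 members under the filter had a median of 10 recovered reads summed over all 6 libraries, and 30 of them had fewer than 20. A fold change was not readable at that depth for most of them. The 5 of highest mean level were IL2RG at 0.965 FPKM, TNFRSF19 at 0.964, IL4I1 at 0.904, IL27RA at 0.858 and IL10RA at 0.852. IL2RG, the chain shared by the receptors for interleukins 2, 7, 15 and others, stood at 0.617, 0.592 and 0.819 FPKM in Wannanhua and 0.757, 1.6 and 1.41 in Yorkshire; 1 Yorkshire library fell inside the Wannanhua range. IL4I1 was uneven inside Wannanhua, at 1.31, 2.28 and 0.154 FPKM, against 0.931, 0.324 and 0.431 in Yorkshire.

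The edgeR test on recovered reads, whose own filter is looser, reached 11 of these 48. At an adjusted p under 0.05, 0 passed, against 2.87% of all genes. IL2RG and IL27RA, a receptor chain for interleukin 27, had an unadjusted p under 0.05, as did 21.0% of all genes (edgeR adjusted p = 0.169 and 0.180), both with fewer reads in Wannanhua, at 43 against 80 and 52 against 116. For IL27RA reads and FPKM ran in opposite order inside Wannanhua, with 9, 20 and 23 reads at 0.734, 0.606 and 0.552 FPKM in Wannanhua 1, 2 and 3. In FPKM its breeds overlapped. Of the 11, 8 had a negative and 3 a positive log2 fold change.

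Some members under the filter were split by breed on few reads. The breeds did not overlap for 5 of the 48, against 15.1% of all genes under the filter that were above 0 somewhere. CXCL8, the neutrophil chemokine also called interleukin 8, stood at 0.469, 0.769 and 1.17 FPKM in Wannanhua and 0.178, 0.247 and 0.159 in Yorkshire, from 48 and 14 reads. CXCL11, a chemokine induced by interferon, was listed at 0 in all Wannanhua libraries and had 3, 4 and 3 reads in Yorkshire, while its receptor CXCR3 was listed at 0 in all Yorkshire libraries and had 1, 5 and 1 reads in Wannanhua. The other members without overlap in FPKM were TNFSF13B and TNFSF14, with 21 and 6 reads in all. In reads the breeds tied for both. TNFSF13B had 5, 6 and 3 reads in Wannanhua and 3, 3 and 1 in Yorkshire. TNFSF14 had 2, 2 and 1 in Wannanhua and 0, 1 and 0 in Yorkshire. The 5 members without overlap were named after their values were seen. IL10, an anti-inflammatory interleukin, had 7 reads in all.

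**Figure D5:**
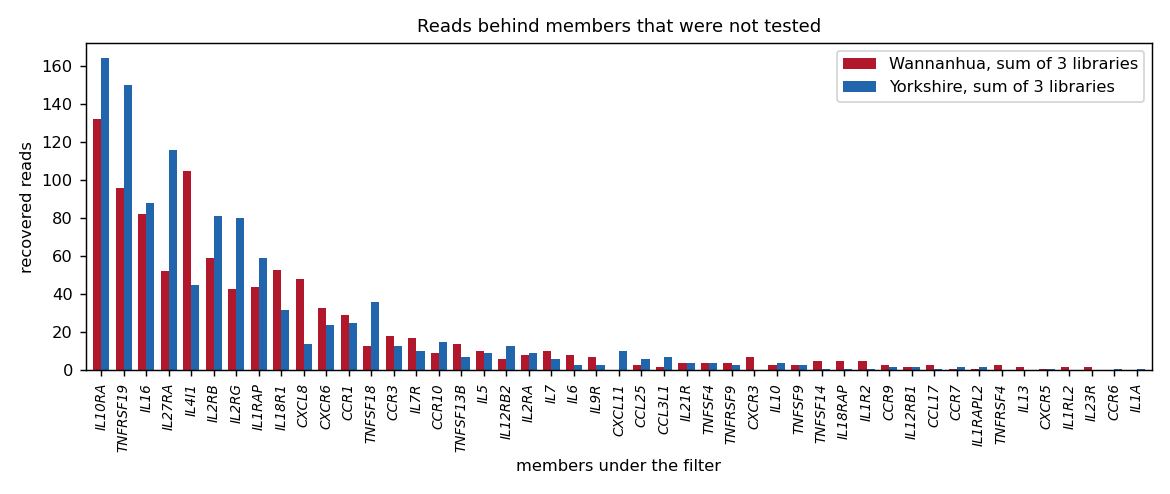
Recovered reads of the members under the filter (1 of the 48 is not shown), summed over the 3 libraries of each breed (linear axis from 0; red Wannanhua, blue Yorkshire), in order of their total. IL10RA leads with 296 reads, and 30 of the 48 have fewer than 20.

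Downstream of the receptors, no gene of the signalling lists passed in limma. Over all genes 3.05% passed in limma, 22.1% had an unadjusted p under 0.05 there, 2.87% passed in edgeR, and the median log2 fold change was 0.12. The JAK, STAT and SOCS list, through which most interleukin receptors signal, had 16 tested genes with a median log2 fold change of 0.09, and 0 passed in limma or in edgeR (16 tested there), with 3 at an unadjusted p under 0.05. PTPN11, a phosphatase bound by gp130, came nearest, at 45.0 ± 1.18 FPKM (SD, n = 3) in Wannanhua against 26.6 ± 3.12 in Yorkshire (limma adjusted p = 0.0587). JAK3, the kinase that pairs with IL2RG, was at 0.480 ± 0.124 and 1.14 ± 0.146 FPKM (limma adjusted p = 0.123), and PIAS1 followed (0.204). JAK3 reached 1 FPKM in Yorkshire libraries alone, and its FPKM per read varied between libraries by a factor of 2.54.

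The NF-kappa-B and TRAF list, which serves TNF and interleukin 1 receptors, had 20 tested genes with a median of 0.15, with 0 past the threshold in limma or edgeR (22 tested there) and 5 at an unadjusted p under 0.05. TRAF2, an adaptor of TNF receptors, was at 10 ± 1.78 FPKM (SD, n = 3) in Wannanhua against 16.1 ± 1.19 in Yorkshire (limma adjusted p = 0.101). IKBKB and CHUK, the kinases that release NF-kappa-B, were at 6.56 ± 1.94 and 24.1 ± 1.76 FPKM in Wannanhua and 3.21 ± 0.823 and 16.4 ± 1.45 in Yorkshire (limma adjusted p = 0.113 and 0.119).

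Death receptor adaptors and caspases had 7 tested genes with a median of 0.07, with 0 past the threshold in limma or edgeR (9 tested there) and 2 at an unadjusted p under 0.05. The genes of smallest p were XIAP, BID and CFLAR (limma adjusted p = 0.157, 0.190 and 0.311). Interleukin 1 and Toll signalling had 5 tested genes with a median of 0.01, with 0 past the threshold in limma or edgeR (15 tested there) and 1 at an unadjusted p under 0.05. IRAK4, IRAK1 and TLR5 had the smallest p there (limma adjusted p = 0.194, 0.581 and 0.764).

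The list of related cytokines and receptors outside the naming rule had 17 tested genes with a median of 0.34, of which 0 passed in limma and 3 had an unadjusted p under 0.05, against 3.05% and 22.1% of all genes. In edgeR 1 of 24 passed, against 2.87% of all genes: LEPR, the leptin receptor, which belongs to the gp130 receptor class. It stood at 2.23, 1.85 and 2.01 FPKM in Wannanhua 1, 2 and 3 and at 0.349, 0.799 and 0.796 in Yorkshire 1, 2 and 3, with no overlap (limma adjusted p = 0.0515, edgeR 0.0466). It reached 1 FPKM in Wannanhua libraries alone and so entered limma's test through the breed in which it is higher. THPO, thrombopoietin, had means of 2.71 ± 0.434 and 1.07 ± 0.189 FPKM (SD, n = 3; limma adjusted p = 0.0524). CNTFR, the receptor for ciliary neurotrophic factor that works with gp130 and LIFR, stood at 6.47, 5.50 and 14.9 FPKM in Wannanhua and 11.6, 53.6 and 28.2 in Yorkshire, where the lowest Yorkshire library fell below the highest Wannanhua one (limma adjusted p = 0.162).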

How the data were processed

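RNA-seq of 6 muscle libraries was analysed. Per the labels' protocols, poly-A RNA was made into paired-end libraries with a kit that does not mark strand, so antisense reads cannot be told apart. CASAVA 1.7, TopHat2 2.0.6 and the build Sscrofa10.2 are listed, with no role, in the submitters' processing notes. Counter and annotation: not given in the sources used here, and no coordinates are printed. The authors deposited an FPKM value per gene and library, and count columns that are not whole numbers, read as a signal in which each library's reads were scaled by 1 factor. Between 99.71% and 99.82% of these values above 0 were whole multiples of the most frequent value near 1 (within 0.01 of a read or a relative 1e-05), and dividing by it gave the recovered reads; 1 to 3 values per library lay below 1 read, so a search from the smallest value finds this step in Yorkshire 1 alone.

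Gene symbols were looked up by Ensembl identifier. The main test was limma 3.58.1 (R 4.3.3) on log2(FPKM + 1), which understates changes of low genes, with breed as the only term, trend and robust settings and Benjamini-Hochberg adjustment over all 11791 genes at 1 FPKM or more in at least 3 libraries. A set of 7 genes with a scaled count of 10000 or more in a library and 0 in another was left out, none a member. Alternatives were edgeR 4.0.16 and DESeq2 1.42.0 on recovered reads, other filters (0.3 and 5 FPKM, none) and a pseudocount of 0.1, quantile normalization, plain limma settings, those 7 genes kept, a replicate block and each library left out. The code of the fits was run on simulated counts, with the same depth-scaled FPKM per read in every library and without genes of few reads. That run does not bear on the members' results. Members, lists and tests were chosen with earlier results of these data known. Named members are those past the threshold, the 8 of smallest p on each side, the 12 of highest mean level, any with no overlap and a log2 fold change of at least 1 in size, and 16 fixed names. The values of 1 member are not reported here. In each signalling list the 3 of smallest p were named.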

Additional observations from a re-analysis of the deposited data

How the results depend on the processing

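The count of 360 genes over the whole table was 69 with no filter, 1251 in DESeq2 and 205 with the replicate block, and ran from 11 to 504 with a library left out (Yorkshire 3 gave the lowest count when absent, then Wannanhua 2 with 19, Wannanhua 1 with 36, Yorkshire 2 with 46 and Yorkshire 1 with 149). The 2 members called higher became 1 with a pseudocount of 0.1, with filters at 0.3 and 5 FPKM and in edgeR. They became 0 with no filter, after quantile normalization and with the replicate block, and 0 to 1 with a library left out. Over all genes the higher calls were 208 in the main test, 169 with that pseudocount, 170 and 234 with those filters and 184 in edgeR. They were 31 with no filter, 138 after quantile normalization, 115 with the replicate block and 2 to 269 with a library left out. The 1 member called lower became 0 with no filter, with the replicate block and with any library left out. Lower calls over all genes were 152 in the main test, 38 with no filter and 90 with the replicate block. With a library left out they ran from 4 to 235. At an unadjusted p under 0.05 stood 7 of 73 members with no filter, against 18.1% of all genes. With the replicate block 5 members stood there, and 4 to 5 with a library left out. The share of all genes was not taken for those fits, so these counts cannot be set against it. Whether the labels' replicate numbers pair the libraries cannot be settled from correlations. Same-numbered deviations had correlations of 0.101, -0.0117 and 0.107, and differently numbered ones ran from -0.134 to 0.0214. The block was kept as an alternative and is given here alone.

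CCL5, IL13RA1 and IL18 kept their direction under all 16 alternatives, with log2 fold changes of -1.66 to -1.13, 1.28 to 1.86 and 0.74 to 1.12. They lost the threshold under 8, 8 and 13 of them; the cause was not tested. Signs turned only for members that never passed. CCL2 was -0.01 with a pseudocount of 0.1, -0.13 after quantile normalization, -0.03 in edgeR and -0.04 in DESeq2. TNFRSF12A was -0.10 in edgeR and -0.11 in DESeq2, and IL17D -0.01 in DESeq2. With a library left out the log2 fold change ran from -0.28 to 0.40 for CCL2, -0.05 to 0.55 for CXCL2, -0.23 to 0.10 for IL15, -0.06 to 0.28 for IL17D, -0.15 to 0.02 for IL1R1, -0.22 to 0.21 for IL4R, -0.56 to 0.72 for TNFRSF12A and -0.10 to 0.45 for TNFRSF21. Members with few reads are limited by depth.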
